A study of Mus musculus with 2 samples.

Results

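Surface glycoproteins of T-lineage cells were followed through 10 genes, *Cd2*, *Cd6*, *Cd27*, *Cd28*, *Thy1*, *Cd24a*, *Cd52*, *Ly6d*, *Cd53* and *Spn*, which were chosen by symbol among the 21041 genes of the deposited RNA-seq table. All 10 were measured in both libraries, with a value above 0 in each. As deposited, all 10 had a lower value in the *Cxxc1* KO library than in the WT library of CD4+CD8+ double-positive (DP) thymocytes, and 8 were at least 2-fold lower. Both statements depend on how the libraries are scaled to each other. Under 4 other scalings, the count at least 2-fold lower was 8, 5, 4 and 4, and *Cd27* under 2 of them and *Spn* under 1 were higher in the KO library. The reduction ranged from 1.45-fold for *Cd27* to 5.52-fold for *Thy1*, with a median of 2.58-fold. At least 2-fold lower values were also found for 17.4% of the 20125 genes above 0 in at least 1 library, and for 56.8% of the 2472 abundant genes, meaning here those whose values average 100 or more over both libraries, to which 9 of the 10 belong. Of these 9, 7 were at least 2-fold lower, and this count is read against the latter share. A lower value by any amount was found for 60.0% of all genes and for 95.2% of the abundant genes.

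The study asked how loss of Cxxc1, a CpG-binding protein of the SETD1 complex that trimethylates histone H3 at lysine 4, changes gene expression in DP thymocytes, the most numerous cells of the thymus. One RNA-seq library was made from each genotype. The WT mice carried the floxed allele without Cre (*Cxxc1* fl/fl). The deficient mice were *Cxxc1* fl/fl h*CD2*-Cre by the methods of the study, whereas the genotype label of the library reads *Cxxc1*+/-, and the library was placed by its title; its values are given below as those of KO cells, a name that follows the title alone. In the h*CD2*-Cre line, Cre is driven by control elements of the human *CD2* gene and is active in early thymocytes and in other immune cells; the mouse *Cd2* gene followed here is the endogenous one. Cre removes exons 4 and 5 of *Cxxc1*. The floxed mice were backcrossed to C57BL/6 for 5 generations, and the general age was 3 to 4 weeks. How many mice gave RNA to each library is not given in the sources used here.

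The deposited values are normalized expression values rounded to whole numbers, and their median was 36 in both libraries. Among 1447 genes with a single annotated length of 300 to 1000 bases, 79.1% of the WT values were whole numbers of reads within the rounding of 0.5, where 20.1% would be by chance, once 1 read on 1 kb of transcript was worth 4.06. In the KO library the worth was 4.70 and the share was 78.4% of 1438 genes, against 17.3% by chance. The values are therefore per transcript length, and levels of different genes can be set side by side on this scale. With the longest transcript as the length, the libraries hold approximately 1404302 and 724500 reads on 19090 genes. These numbers differ more between the libraries than the worth of 1 read, 4.06 and 4.70. With these lengths, the deposited values are therefore not scaled to equal reads on genes, and such a scaling was not run. Intervals below are 95% Clopper-Pearson intervals from these approximate reads; they cover counting error only and compare 2 libraries rather than genotypes. For *Cd2*, *Cd6*, *Cd27*, *Thy1* and *Cd52*, no annotated length gave whole reads within the rounding in both libraries. Their read numbers and intervals are therefore less certain. With 1 library per genotype there is no replicate check and no p-value.

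The targeted gene, *Cxxc1*, had 91 in WT and 50 in KO cells, a 1.82-fold reduction with an interval from 1.14 to 2.96 on approximately 59 and 28 reads. The KO value is above the median of 24 of the olfactory receptor genes described below, of which 135 (12.0%) were at or above it. With the same median over abundant genes in both libraries, the ratio of KO to WT was 1.10. The value belongs to the whole gene, including the exons outside the deleted part. It therefore does not show loss of the gene and does not tell a deletion of both alleles from the heterozygous genotype on the label. The study reports other assays of DP cells from its deficient mice. In these, the floxed band was gone, *Cxxc1* mRNA was nearly undetectable by qPCR and a western blot showed deletion of the protein. Whether those cells and this library came from the same mice is not given.

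The DP label was checked with 18 marker genes, all of which had a value above the median gene in both libraries, from 79 for *Ptcra* to 20778 for *Rag1* in WT and from 44 to 5058 for the same genes in KO cells. All 18 were lower in the KO library, 14 of them at least 2-fold. These 14 are among the 17 abundant markers. The share at least 2-fold lower was 56.8% over all abundant genes and 84.1% over those averaging 500 or more. Of 8 genes of the earlier CD4-CD8- double-negative (DN) stage, 7 were higher in the KO library, where 60.0% of all genes were lower. The sum of the list was 327 in WT and 634 in KO cells, with *Il2ra* at 63 and 207 and *Notch3* at 56 and 167. The other genes of the list had values from 28 to 43 in WT and from 35 to 58 in KO cells. For the olfactory receptor genes described below, the 95th percentile was 54 in WT and 57 in KO cells. Several of the 10 surface proteins are known to be present at both stages, and the part of the DN genes in the values below was not tested. Fewer cells of a type and less RNA per cell cannot be told apart in these libraries. Lists for B cells, macrophages and dendritic cells, erythroid cells, NK and related cells and thymic stroma had medians from 27 to 32 in WT and from 22 to 31.5 in KO cells, at the level of the background described below, with sums per list from 161 to 450 in WT and from 179 to 420 in KO cells. The gene with the highest mean of each list was *Cd79b* with 74 and 43, *Itgam* with 101 and 107, *Klf1* with 29 and 64, *Gzma* with 102 and 54 and *Pecam1* with 119 and 66, in the same order of lists, so single markers lay above the background and moved in either direction. Among defining genes, *Csf1r* had 24 and 35, *Ncr1* had 14 and 26 and *Foxn1* had 35 and 32. Of the erythroid genes, *Hbb-b1* had 8 and 15 and *Alas2* 31 and 27. *Hba-a1*, *Hba-a2* and *Hbb-b2* are listed at 0 in both, but 78.0%, 71.7% and 26.9% of their 50-base stretches also occur elsewhere in the genome, where reads are not uniquely mapped, and their 0 is not read as absence. The part of these other cell types in the values below was not tested. Of 10 genes of mature single-positive cells, 7 were higher in KO cells, where 60.0% of all genes were lower. The sum of the 10 was 523 in WT and 487 in KO cells. Their medians, 36.5 and 39, were near the median of 36 over all genes.

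These 10 proteins form much of the coat of a thymocyte. CD2, CD6, CD27 and CD28 are receptors that adjust the response to antigen: CD2 and CD6 bind ligands on neighbouring cells, CD28 is the classical costimulator of T cells, and CD27 is a costimulator of the TNF receptor family. Thy-1, CD24, CD52 and LY6D are small proteins held in the membrane by a glycosylphosphatidylinositol (GPI) anchor. CD53 is a tetraspanin, a protein that organizes other membrane proteins into clusters, and CD43, the product of *Spn*, is a long mucin-like sialoglycoprotein. CD24 is known to be high on immature thymocytes and to decline as they mature.

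In WT DP thymocytes the levels spanned from 97 to 3350. *Thy1* was the highest of the 10 and took 41.6% of their summed value, followed by *Cd28* with 22.6% and *Cd27* with 14.4%. *Cd24a*, *Cd52*, *Cd2* and *Spn* lay close together, from 288 to 322. *Ly6d* and *Cd6* came next with 205 and 196, and *Cd53* was the lowest. In KO cells the order changed. *Cd27* became the highest with 799 and 32.9% of the sum, ahead of *Thy1* with 25.02% and *Cd28* with 16.2%. *Spn* moved from the seventh to the fourth place, *Cd52* went from the fifth to the ninth, and *Cd53* stayed the lowest with 45. The sum of the 10 genes was 8052 in WT and 2426 in KO cells, 3.32-fold lower, where the sum of all genes was 1.58-fold lower. Most of the sum comes from *Thy1*, *Cd28* and *Cd27*, which average 500 or more. The median reduction of all genes of that level was 3.05-fold, and that of genes under 50 was 1-fold. The reduction of the sum is near this 3.05-fold in number, but a ratio of sums and a median of single genes are different measures. Within the sum, *Thy1* was 5.52-fold, *Cd28* 4.62-fold and *Cd27* 1.45-fold lower. The 10 genes made up 0.519% of all values in WT and 0.247% in KO cells.

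**Figure D1:**
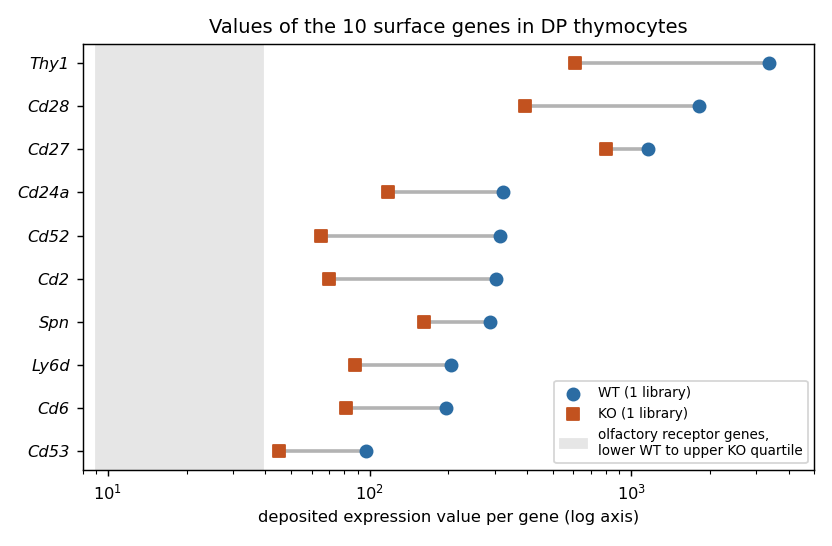
Deposited expression value (log axis) of each of the 10 surface genes in the WT library (circles) and the KO library (squares); the grey band runs from the lower quartile of 1122 olfactory receptor genes in WT (9) to their upper quartile in KO cells (39). Every square lies to the left of its circle, and Cd53 in KO cells, at 45, comes closest to the band.

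The level of genes that thymocytes do not use sets the background. The 1122 olfactory receptor genes, which serve the nose, had a median of 22 in WT and 24 in KO cells. None of them reached the value of any of the 10 genes in WT. In the KO library, 190 of them (16.9%) were at or above the 45 of *Cd53*, 21 (1.87%) at or above the 65 of *Cd52* and 10 (0.891%) at or above the 70 of *Cd2*. For *Cd6*, the number was 3 and for *Ly6d* 2. For *Cd27*, *Cd28*, *Thy1*, *Cd24a* and *Spn* it was 0. Reads of this background raise a low value more than a high one in relative terms, so the reductions of *Cd53*, *Cd52* and *Cd2* are larger once the olfactory receptor median is subtracted. They were then 3.57-fold, 7.12-fold and 6.15-fold, on net KO values of 21, 41 and 46. No interval was computed for them, and the background itself has quartiles of 10 and 39 in KO cells. Their size is therefore uncertain.

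*Thy1*, the gene of the pan-T-cell glycoprotein Thy-1, is found in mm9 on chromosome 9 from 43851467 to 43856662 on the plus strand, with 4 exons in its single annotated transcript. The deposited value was 3350 in WT and 607 in KO cells. It was the 9th highest of all genes in WT and the 29th in KO cells. The reduction was 5.52-fold, with an interval from 4.79 to 6.38, and rests on approximately 1433 and 224 reads. Of the 163 other genes averaging 500 or more, 12 (7.36%) had a reduction at least as large, and the median of all 164 was 3.05-fold.

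*Cd24a* lies on chromosome 10 from 43298975 to 43304068 on the plus strand and has 2 exons. It had 322 in WT and 117 in KO cells, a 2.75-fold reduction with an interval from 1.96 to 3.95. The interval reaches below 2-fold. Of the 50-base stretches of its transcript, 21.1% also occur, base for base, at 2 other places in the genome. Reads from these stretches are not uniquely mapped, so the level of *Cd24a* is understated in both libraries. For *Cd27* this share was 0.199%, and it was 0% for the other 8 genes.

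*Cd52*, which encodes a very short GPI-anchored peptide of lymphocytes, lies on chromosome 4 from 133638363 to 133650997 on the minus strand. It had 314 in WT and 65 in KO cells. The 4.83-fold reduction has the widest interval of the 10 genes, from 2.18 to 13.0, because the short transcript of 514 bases yields only approximately 40 reads in WT and 7 in KO cells. Its exons share 172 bases with *Aim1l* on the opposite strand, which had 25 and 31. *Cd52* and *Cd24a* had nearly the same level in WT, with a *Cd52* to *Cd24a* ratio of 0.975, and this ratio was 0.556 in KO cells.

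*Ly6d*, a member of the Ly6 family of small GPI-anchored proteins, lies on chromosome 15 from 74592486 to 74593997 on the minus strand. It had 205 in WT and 88 in KO cells, which correspond to 35 and 13 reads on its 691 bases. The reduction was 2.33-fold with an interval from 1.20 to 4.78. Among the 2066 genes averaging 100 to 300, to which *Cd2*, *Cd6*, *Cd24a*, *Cd52*, *Ly6d* and *Spn* belong, 52.8% were at least 2-fold lower and the median reduction was 2.04-fold. In this group, 723 genes (35.0%) had a reduction at least as large as *Ly6d*, 409 (19.8%) as *Cd24a* and 29 (1.40%) as *Cd52*. The 4 GPI-anchored genes were thus spread from 2.33-fold to 5.52-fold.

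Among the receptors, *Cd28*, on chromosome 1 from 60773644 to 60830203 on the plus strand, had 1816 in WT and 393 in KO cells. Its 4.62-fold reduction had an interval from 4.13 to 5.19, and its rank among all genes was 26 in WT and 73 in KO cells. Of the other genes averaging 500 or more, 24 (14.7%) had a reduction at least as large. The level of *Cd28* relative to *Thy1* was 0.542 in WT and 0.647 in KO cells, and the intervals of both genes overlap.

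*Cd2*, on chromosome 3 from 101079822 to 101091862 on the minus strand, encodes the adhesion receptor that binds CD48 in the mouse. It had 305 in WT and 70 in KO cells, a 4.36-fold reduction with an interval from 2.60 to 7.92. In its group of 100 to 300, 61 genes (2.95%) had a reduction at least as large. *Cd6*, on chromosome 19 from 10863831 to 10904548 on the minus strand, encodes a scavenger receptor family protein that binds ALCAM. It had 196 in WT and 81 in KO cells, a 2.42-fold reduction with an interval from 1.77 to 3.41, and 636 genes (30.8%) had a reduction at least as large. *Cd2* was 1.56 times as high as *Cd6* in WT and 0.864 times as high in KO cells. With the shortest annotated transcripts, the intervals were from 2.16 to 9.53 for *Cd2* and from 1.15 to 5.20 for *Cd6*. The intervals of both genes overlap with either length.

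*Cd27*, on chromosome 6 from 125182640 to 125187028 on the minus strand, encodes the costimulator of the TNF receptor family and had the smallest reduction of the 10. It had 1159 in WT and 799 in KO cells. The 1.45-fold reduction had an interval from 1.24 to 1.70, which with the longest transcripts lies below the intervals of *Thy1*, *Cd28*, *Cd2*, *Cd52*, *Cd24a* and *Cd6* and overlaps those of *Ly6d*, *Cd53* and *Spn*. Of the other genes averaging 500 or more, 150 (92.0%) had a reduction at least as large. Its rank was 61 in WT and 19 in KO cells. *Thy1* was 2.89 times as high as *Cd27* in WT and 0.760 times as high in KO cells, and for *Cd28* the ratios to *Cd27* were 1.57 and 0.492. These ratios within a library do not depend on the scaling. The direction of *Cd27* itself does. It was lower in KO cells as deposited, but had a log2 ratio of 0.03 with both libraries scaled to the same sum without the 100 highest genes, and of 0.46 with the same median over abundant genes.

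**Figure D2:**
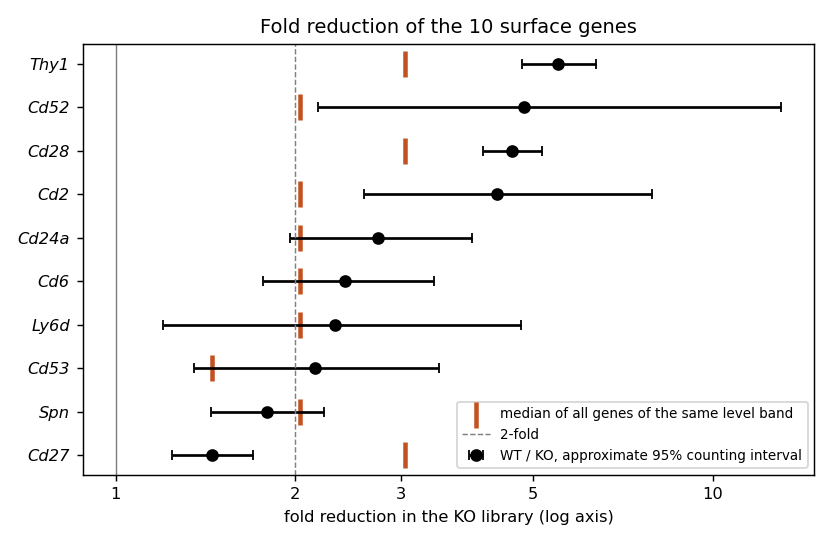
Fold reduction (WT value over KO value, log axis) of each of the 10 surface genes with its approximate 95% counting interval, 1 library per genotype; the orange mark is the median reduction of all genes of the same level of mean expression. Thy1 and Cd28 lie to the right of their mark at 3.05-fold and Cd27, at 1.45-fold, lies to the left of it.

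*Spn* and *Cd53* had the smallest reductions after *Cd27*. *Spn*, on chromosome 7 from 134275746 to 134281337 on the minus strand, had 288 in WT and 161 in KO cells, a 1.79-fold reduction with an interval from 1.45 to 2.23. Of the other genes averaging 100 to 300, 1354 (65.6%) had a reduction at least as large, and its rank was 791 in WT and 579 in KO cells. *Spn* and *Cd27* were the only genes of the 10 with a higher rank in KO cells, and the log2 ratio of *Spn* was 0.16 with the same median over abundant genes. *Cd53*, on chromosome 3 from 106561779 to 106593067 on the minus strand, had 97 in WT and 45 in KO cells, a 2.16-fold reduction with an interval from 1.35 to 3.48. Among the 3657 genes averaging 50 to 100, 20.0% were at least 2-fold lower, the median reduction was 1.45-fold, and 558 (15.3%) had a reduction at least as large as *Cd53*.

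At the deposited scaling, the upper bound of the ratio lay below 1 for all 10 genes. This held with the longest and with the shortest annotated transcript as the length. Also as deposited, a reduction past 2-fold throughout the interval was found for *Thy1*, *Cd28*, *Cd2* and *Cd52* with the longest transcript. With the shortest it was found for 3 genes, without *Cd52*. Other scalings shift the intervals with the ratios. With the same median over abundant genes, the shift was 1.00 on the log2 scale. With the longest transcript, only *Thy1*, *Cd28*, *Cd2* and *Cd52* then kept an upper bound below 1. Relative to the 84.1% of genes averaging 500 or more that were at least 2-fold lower, *Thy1* and *Cd28* were past 2-fold and *Cd27* was not. The median log2 ratio was -1.37 over the 10 genes, -0.20 over all genes and -1.08 over abundant genes. The reduction became larger with the level across all genes, from a median of 1-fold under 50 to 3.05-fold at 500 and over, as the plot of all genes shows.

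**Figure D3:**
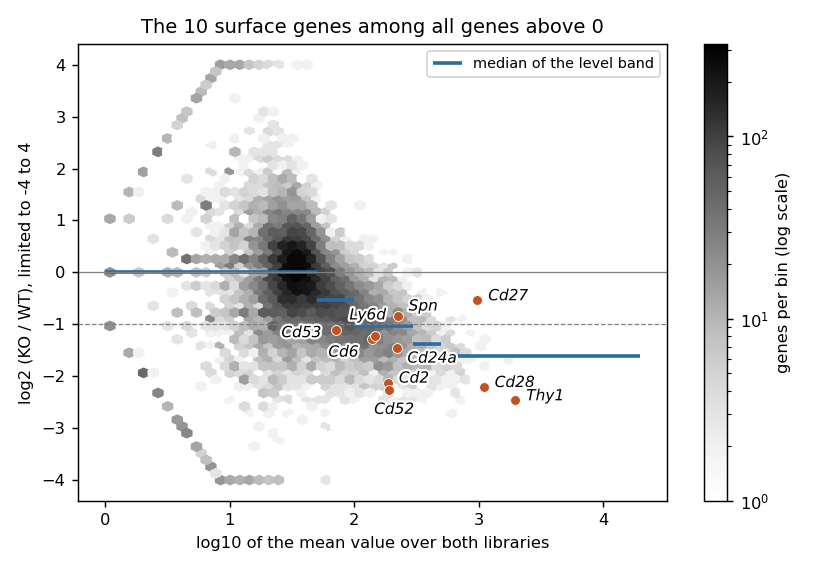
Log2 ratio of KO to WT (values raised to at least 1, limited to -4 to 4) against the log10 mean of both libraries for the 20125 genes above 0, as a density in grey, with the 10 surface genes as orange points and the median of each of 5 levels of mean expression as blue lines. Thy1, Cd28, Cd2 and Cd52 lie below the line of their level and Cd27 lies above it; the dashed line is at 2-fold lower.

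Upstream sequence from RefSeq was used for 3 of the 10 genes, *Cd27*, *Cd53* and *Spn*. It is shown because Cxxc1 binds unmethylated CpG dinucleotides and marks promoters through the SETD1 complex. In DP thymocytes, however, the study found few of its Cxxc1 sites in promoters or CpG islands, although binding accumulated at transcription starts. In its cultures, a mutant Cxxc1 without DNA binding still let deficient cells become DP cells. Binding of Cxxc1 to the sequences below was not tested. The table gives the sequence on GRCm38.p6, and the 250 bases before each start were matched base for base to 1 place each in NCBIM37, the build of mm9, whose coordinates are given. All 3 places lie outside the exons, upstream of the annotated gene. CpG dinucleotides are in capitals, and sequences read 5′ to 3′ on the strand of the gene.
Cd27, chr6:125187046-125187295, minus strand: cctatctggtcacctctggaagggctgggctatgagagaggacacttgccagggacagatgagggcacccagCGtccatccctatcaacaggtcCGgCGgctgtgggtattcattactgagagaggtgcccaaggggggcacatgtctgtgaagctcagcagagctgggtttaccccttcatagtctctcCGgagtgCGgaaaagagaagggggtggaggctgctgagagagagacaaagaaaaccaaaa
Cd53, chr3:106593068-106593317, minus strand: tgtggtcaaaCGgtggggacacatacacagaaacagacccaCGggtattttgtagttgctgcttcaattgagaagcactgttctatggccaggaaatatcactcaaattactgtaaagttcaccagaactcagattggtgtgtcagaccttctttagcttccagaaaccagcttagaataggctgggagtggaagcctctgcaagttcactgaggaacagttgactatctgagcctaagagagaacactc
Spn, chr7:134281338-134281587, minus strand: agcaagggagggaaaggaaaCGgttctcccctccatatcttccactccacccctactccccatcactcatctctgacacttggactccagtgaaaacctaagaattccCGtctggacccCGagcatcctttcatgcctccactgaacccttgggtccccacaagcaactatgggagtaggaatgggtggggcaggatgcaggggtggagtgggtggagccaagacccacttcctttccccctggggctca

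The 250 bases of *Cd27* hold 5 CpG, those of *Spn* 3 and those of *Cd53* 2. The median over the 32851 windows of the table was 6, with quartiles of 2 and 16. As many CpG or more were found in 55.6% of all windows for *Cd27*, 71.0% for *Spn* and 81.2% for *Cd53*. Searched on both strands, the letters TGTGGT, the core of the RUNX motif, occur once in the *Cd53* window, at its upstream end, and not in those of *Cd27* and *Spn*; 14.0% of all windows hold them. The E-box letters CANNTG, which read the same on both strands, occur 3 times for *Cd27*, 2 times for *Cd53* and 1 time for *Spn*, and 66.2% of all windows hold them. TATAAA, present in 12.4% of windows, and CCGGAAGT, an ETS motif present in 2.88%, are in none of the 3 windows. These are counts of letters in short windows, and other forms of the motifs, such as shorter ETS forms, were not searched.

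Relatives, ligands and partners of the 10 proteins were set beside them in 10 lists of 133 different genes, of which 91 were lower and 39 higher in KO cells and 36 were at least 2-fold lower. Most of these genes lie near the background. Of the 34 abundant ones, 21 were at least 2-fold lower, beside 56.8% of all abundant genes. Their median log2 ratio was -1.09, next to -1.08 over all genes of that level.

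The ligands are made largely by other cells, and 6 of the 10 listed ligand genes were higher in KO cells, 3 lower and 1 equal, all at low level. *Cd48*, whose product binds CD2, had 92 in WT and 62 in KO cells, and *Cd59a* had 26 and 10. *Alcam*, the ligand of CD6, had 34 and 43, and *Cd70*, the ligand of CD27, had 39 in both. The CD28 ligands *Cd80* and *Cd86* had 41 and 33, and 29 and 41. *Siglecg* had 23 and 32, *Selp* 30 and 41, *Icam1* 35 and 39 and *Sele* 24 and 26. Apart from *Cd48*, these values do not exceed 43, where the median gene is at 36.

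Inside the cell, 20 of 21 cytoplasmic partners were lower and 15 were at least 2-fold lower, with a median reduction of 2.39-fold. Of the 14 abundant partners, 12 were at least 2-fold lower. Over all abundant genes, 95.2% were lower and 56.8% at least 2-fold lower. The share at least 2-fold lower rose with the level, from 52.8% of genes averaging 100 to 300 to 84.1% of those averaging 500 or more. *Lat*, *Lck*, *Msn* and *Ezr* average 500 or more. The part of the level in the count of partners was not tested. *Lat*, the adaptor on which T-cell receptor signals assemble, had 1075 in WT and 198 in KO cells, a 5.43-fold reduction. *Lck*, a Src-family kinase of T cells, had 1073 and 255, and *Pik3r1*, a subunit of the PI3 kinase recruited by CD28, had 599 and 182. The 3 ERM proteins that tie CD43 to actin were lower as well, with *Msn* at 1122 and 409, *Ezr* at 1028 and 282 and *Rdx* at 457 and 137. The reductions of these 3 genes, 2.74-fold, 3.65-fold and 3.34-fold, stand beside 1.79-fold for *Spn*. *Cd2ap*, which binds the tail of CD2, had 151 and 64. The CD6 partner *Lcp2* had 562 and 235. *Siva1*, which binds the tail of CD27, was listed at 0 in WT and 16 in KO cells. The 16 lies below the olfactory receptor median of 24 in that library and is not read as expression.

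The families of the 10 proteins came next. Their counts stand beside 60.0% lower and 17.4% at least 2-fold lower over all genes, and 95.2% and 56.8% over abundant genes. In the CD2 and SLAM family, 7 of 9 genes were lower and 1 at least 2-fold, *Slamf1*, with 407 in WT and 145 in KO cells; *Cd84* had 553 and 356 and *Slamf6* 229 and 200. Of 4 further CD28 family genes, 3 were lower and 0 were at least 2-fold lower, with *Icos* at 96 and 65 and *Ctla4* at 85 and 77. Of 7 TNF receptor costimulators, 5 were lower and 1 was at least 2-fold lower, *Tnfrsf18*, with 76 and 23. *Cd5*, the close relative of *Cd6*, had 212 and 100, a 2.12-fold reduction next to 2.42-fold for *Cd6*; in this list of 4 genes, 2 were lower. Among 16 further tetraspanins, 11 were lower and 5 at least 2-fold lower. *Tspan3* had 293 and 68, *Cd81* 270 and 112, *Tspan13* 327 and 215 and *Cd37*, a tetraspanin of lymphocytes like *Cd53*, 190 and 140. Of 19 further Ly6 family genes, 10 were lower, 4 of them at least 2-fold, and 3 were at least 2-fold higher. *Ly6e* was the highest with 789 and 705, a 1.12-fold reduction next to 2.33-fold for *Ly6d*; it was higher in KO cells under the scalings that raise that library by more than this factor.

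Of 21 further surface genes of thymocytes, 14 were lower and 5 at least 2-fold lower. All 5 are among the 11 abundant genes of the list, beside 56.8% of all abundant genes. *Ptprc*, the gene of CD45, had 4239 in WT and 1101 in KO cells, a 3.85-fold reduction. *Cd96* had 424 and 157, *Itgb2* 231 and 94 and *Bsg* 196 and 87. Some abundant genes of this list were not lower. *B2m*, the light chain of MHC class I, had 964 and 965, *Cd47* had 466 and 533 and the integrin gene *Itga4* had 189 and 254. With the same median over abundant genes, these were 1.997-fold, 2.28-fold and 2.68-fold higher in KO cells. Of 25 genes of GPI anchor synthesis, which the anchored proteins Thy-1, CD24, CD52 and LY6D require, 19 were lower and 5 at least 2-fold lower. Over all genes, the shares were 60.0% and 17.4%. The median reduction of the list was 1.21-fold. Its highest WT value was 166, for *Pigm*, which had 80 in KO cells.

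**Figure D4:**
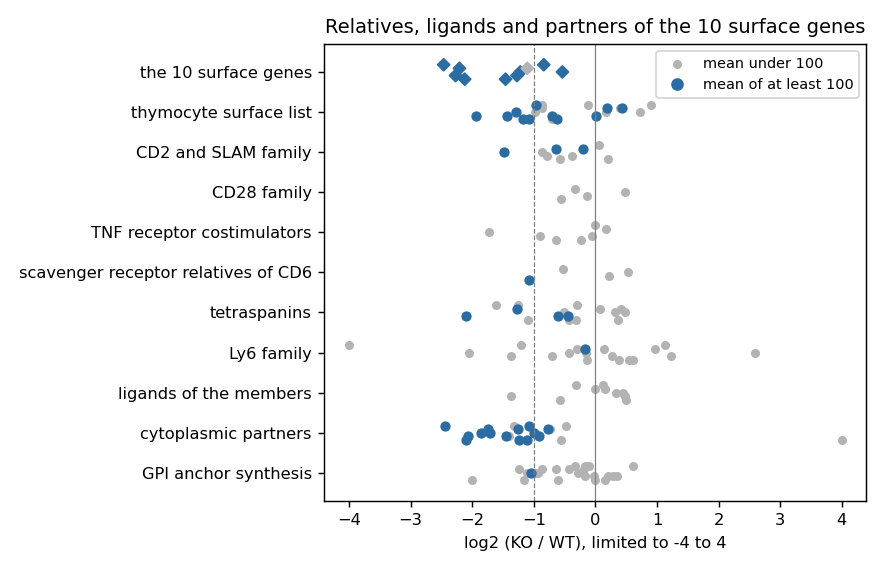
Log2 ratio of KO to WT (values raised to at least 1, limited to -4 to 4) of the 10 surface genes (diamonds) and of each gene of 10 lists of relatives, ligands and partners (circles), blue for abundant genes (mean of 100 or more) and grey for the others. The cytoplasmic partners, 15 of 21 at least 2-fold lower (left of the dashed line), lie at the same side as the surface genes, and the ligands scatter about 0. Over all abundant genes, 56.8% were at least 2-fold lower, and over those averaging 500 or more, 84.1%.

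The scaling of the libraries sets where 0 lies on this scale. It moved every ratio by the same amount, by 0.04 on the log2 scale with the same median of all genes, by 0.39 with the same 75th percentile, by 0.56 with the same sum without the 100 highest genes and by 1.00 with the same median over abundant genes. Under the last of these, *Thy1*, *Cd52*, *Cd28* and *Cd2* were still 2.77-fold, 2.42-fold, 2.32-fold and 2.18-fold lower, *Cd24a* was 1.38-fold lower, and *Cd6*, *Ly6d* and *Cd53* were from 1.08-fold to 1.21-fold lower. *Cd27* and *Spn* were then 1.38-fold and 1.12-fold higher.

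**Figure D5:**
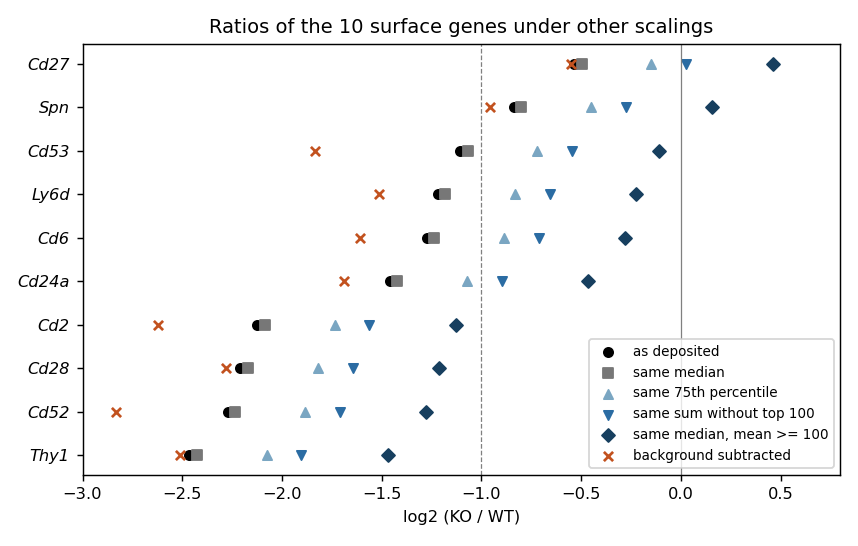
Log2 ratio of KO to WT of each of the 10 surface genes as deposited, under 4 other scalings and after subtraction of the olfactory receptor median. The order of the genes is kept by the scalings, Cd27 crosses 0 under 2 of them and Spn under 1, and the subtraction moves Cd53 most.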

How the data were processed

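RNA-seq of DP thymocytes was analysed for 1 WT and 1 *Cxxc1* KO library, grouped by title. The authors mapped 50-base reads to mm9 (the processing notes name Bowtie 1.0.1 and CASAVA 1.8.2), kept those that mapped uniquely and used the Partek Genomic Suite. They deposited a score, a normalized value of each gene as a whole number; the annotation behind it is not given in the sources used here. Ratios were taken between values raised to at least 1, with a threshold of 2-fold and no test. The worth of 1 read was estimated from short genes with 1 length in GENCODE vM1 (NCBIM37), with constants from 100000 to 400000 tried, and this step was tested on simulated data. Repeated 50-base stretches were found with blastn 2.17.0. Software was Python 3.11.15 with scipy 1.17.1, pandas 2.3.3, numpy 2.4.6 and matplotlib 3.10.9. Members, lists and markers were chosen with earlier results of these data known. The levels of mean expression other than 100 were set after values were seen. Genes of the lists were named if abundant, if among the 2 highest of a list, or as ligands; *Siva1* and the marker genes were named after their values were seen. Alternatives were 4 scalings, background subtraction, pseudocounts, thresholds and a filter on low values.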

Additional observations from a re-analysis of the deposited data

How the results depend on the processing

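The number of the 10 genes at least 2-fold lower was 8 as deposited, 5 when the 75th percentile was made equal, 4 with an equal sum of all but the 100 highest genes, 4 with the same median over abundant genes, and 4 at a threshold of 3-fold. The median log2 ratio of the 10 genes, -1.37 as deposited, was -0.81 with the same sum and -0.37 with the same median over abundant genes. Of the 133 related genes, 36 were at least 2-fold lower as deposited. In the same order of settings, the number was 18, 14 and 7, and it was 14 at 3-fold, 59 at 1.5-fold, 63 after subtraction of the olfactory receptor median and 21 among the 34 abundant genes. *Cd27* reversed to 0.025 with the same sum and to 0.46 with the same median over abundant genes, and *Spn* reversed to 0.16 with the latter. The other 8 genes stayed lower in all 7 settings run on single genes. With the same median over all genes and with pseudocounts of 1 and 10, all 10 ratios stayed within their counting intervals. After the background was subtracted, 9 did, and *Cd53* moved to a log2 ratio of -1.84. The scalings move all genes by 1 factor, so these changes follow from their construction. With the longest transcript as the length, counting limits *Cd52* and *Ly6d* most, with 7 and 13 reads in KO cells. With the shortest, *Cd52*, *Cd2* and *Cd6* had 5, 10 and 11. No paired analysis was possible because only 1 library exists per genotype and nothing was tested.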
